A study of Drosophila melanogaster with 2 samples.

Results

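The 10 genes described here encode histone variants and the proteins that carry histones and place them on DNA. They were listed by name, and are 10 of the 13945 protein-coding genes annotated on the 6 assembled chromosome arms. A gene was said to have a called region when the summit of a thresholded region lay within 1 kb of any of its annotated starts. The data are ChIP-seq of 1 group, whole fly embryos aged 0 to 24 hours that carry an inserted CG42726-eGFP fusion gene, with an anti-GFP immunoprecipitation. There are 2 biological replicates, and the labels do not say whether they came from separate collections. The embryos are of mixed age and cell type, so a region cannot be tied to a stage or a tissue. All embryos carry the tagged gene, and no control immunoprecipitation was analysed here. The files list regions on dm6 with the authors' own signal value and no read counts, so the depth is unknown. The list between replicates and the pooled list give each member region they share the same signal, so they are no separate measurement of it. The replicate lists are.

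A nucleosome is built of the core histones H2A, H2B, H3 and H4. The replication-dependent histones come from a repeated gene cluster and are made during DNA synthesis. Variants such as H3.3 and the fly H2A variant are made outside it and are exchanged into chromatin throughout the cell cycle. His3.3A and His3.3B both encode H3.3, and His4r encodes an H4 outside the cluster. Histones do not travel alone: asf1 binds H3 with H4 and hands them on, Caf1-180 is the large subunit of the complex that deposits them behind the replication fork, and Hira with yem (yemanuclein) deposits H3.3 independently of replication. Daxx is an H3.3 chaperone, and XNP, the fly counterpart of mammalian ATRX, is a SWI/SNF-type ATPase that acts in H3.3 deposition.

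In the main list, made of the regions that passed between the replicates, 6 of the 10 genes had a called region, against 20.6% of all protein-coding genes. The 6 were Daxx, His2Av, XNP, Caf1-180, yem and His3.3A. The list made from pooled reads added His4r and asf1, for 8 of 10, against 27.3% of all genes. His3.3B and Hira had no called region in any of the 4 thresholded lists. Replicate 1 alone gave 7 of the 10 against 21.9% of genes, and replicate 2 alone gave 5 against 12.7%. The 2 genes called in replicate 1 and not in replicate 2 were His3.3A and asf1, and the reverse occurred for 0 genes. Daxx, His2Av, XNP, Caf1-180 and yem were called in all 4 lists. With 1 group and members chosen with earlier results known, no test was made of these counts. Genes with more than 1 start had a called region in 32.1% of cases and genes with 1 start in 16.4%. Of the members, 4 of the 6 genes with 1 start and 2 of the 4 with more were called.

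The sequences just upstream of 6 members are shown because the strongest regions lay there, and because Hira and His3.3B give the same window at genes with no called region. Each is the 120 bases before the outermost annotated start, written 5′ to 3′ on the strand of the gene, from the RefSeq assembly of release 6, which is dm6. No printed base lies in an annotated UTR, but the Daxx window overlaps a non-coding exon of lncRNA:CR45463 on the opposite strand. Capitals mark the 5-base sequence CGATA on either strand, the core of the sites bound by the boundary protein BEAF-32. This sequence was picked after the windows had been seen.
Daxx, plus strand, 2L from 6480809 to 6480928: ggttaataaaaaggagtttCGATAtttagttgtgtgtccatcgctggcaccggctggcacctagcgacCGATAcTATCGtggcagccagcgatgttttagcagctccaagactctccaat
XNP, minus strand, 3R from 25482835 to 25482954: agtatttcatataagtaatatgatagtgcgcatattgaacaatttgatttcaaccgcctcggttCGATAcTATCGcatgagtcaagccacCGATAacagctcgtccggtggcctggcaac
His2Av, plus strand, 3R from 26866809 to 26866928: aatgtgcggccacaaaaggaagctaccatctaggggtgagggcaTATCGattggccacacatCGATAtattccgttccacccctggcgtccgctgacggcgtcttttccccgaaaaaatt
Caf1-180, minus strand, X from 8606305 to 8606424: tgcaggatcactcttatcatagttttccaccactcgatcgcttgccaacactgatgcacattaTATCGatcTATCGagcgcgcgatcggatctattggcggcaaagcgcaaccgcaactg
Hira, plus strand, X from 7721999 to 7722118: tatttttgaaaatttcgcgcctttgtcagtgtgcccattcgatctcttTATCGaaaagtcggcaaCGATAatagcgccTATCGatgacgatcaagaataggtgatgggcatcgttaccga
His3.3B, minus strand, X from 9156670 to 9156789: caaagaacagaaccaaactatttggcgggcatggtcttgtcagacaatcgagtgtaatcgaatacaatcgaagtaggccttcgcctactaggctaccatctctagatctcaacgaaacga

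In these windows Daxx, XNP and Hira held 3 copies of CGATA each, His2Av and Caf1-180 held 2 each, and His3.3B held 0. Of all 10 members 7 held at least 2 copies, among them His3.3A and His4r, whose windows run into the transcribed leader of a neighbour and are not printed. Over all protein-coding genes 14.5% held at least 2, and 34.5% of the genes called in the main list did. At least 2 copies were held by 5 of the 6 members called in the main list and by 2 of the 4 not called. With any copy counted, these member counts stayed the same, at 7 of all 10. The shares of other genes were then higher, at 30.7% of all protein-coding genes and 52.9% of those called in the main list. The gap between members and other genes is thus smaller with any copy counted. The called yem held 0, and the uncalled Hira held as many as Daxx. Because CGATA was picked after the member windows had been seen, these counts and shares are a description and no test.

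Among the H3.3 and H2A variants, the H2A variant gene had the strongest region. His2Av (FBgn0001197, 3R from 26866929 to 26869220, plus strand) encodes the fly H2A variant, which serves as both H2A.Z and H2A.X. Its signal was 249 in the main list (rank 199 of 2752), 132 in the list of replicate 1 (rank 325 of 2803) and 118 in that of replicate 2 (rank 131 of 1629). In these lists 7.19%, 11.6% and 7.98% of regions had a higher signal. The region, from 26866783 to 26866871, was 89 bp wide, while 91.8% of the main list had a width of 296 bp and 8.14% were narrower. Its summit lay between genes, 87 bp upstream of the His2Av start and 35 bp upstream of the start of the divergent gene ball, which encodes a nucleosomal histone kinase. The region thus lay near both starts, and it counted for ball when each summit was given to the nearest start alone. The replicate summits were 3 bp apart.

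The paired H3.3 genes differed in their calls. His3.3A (FBgn0014857, 2L from 5055058 to 5056149, plus strand) had a signal of 93.8 in the main list at rank 1570, below the list median of 102. In replicate 1 it was 48.4 at rank 2043 of 2803. In the ranked list of replicate 2, which holds all candidates before the limit, its signal was 38.1 with an irreproducible discovery rate (IDR) of 0.0267, above the limit of 0.01. Its summit, in the main list, fell in the 5′ UTR, 118 bp downstream of the nearer of its 2 starts and 236 bp from the start of CG14036, which runs the other way. This was the only strongest member summit of the main list that lay downstream of its nearest start.

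His3.3B (FBgn0004828, X from 9152523 to 9156669, minus strand) had 7 ranked candidates within 1 kb of its 3 starts, and the strongest lay 74 bp downstream of the outermost start. This candidate had a signal of 62.3 and an IDR of 0.205 in the ranked list between replicates, and an IDR of 0.0102 in the ranked pooled list, just past the limit. In replicate 1 it had a signal of 36.6 (IDR 0.0317). In replicate 2 the strongest candidate lay elsewhere, 521 bp upstream, with a signal of 20.4 (IDR 0.64). A weaker candidate of replicate 2, 110 bp downstream of the start with a signal of 17.3 (IDR 0.481), lay close to that of replicate 1, 89 bp downstream. The nearest called summit of the main list was 3359 bp away, at NdufA3.

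His4r (FBgn0013981, 3R from 14625755 to 14626614, plus strand) had a called region only in the pooled list, with a signal of 61.1 at rank 3414 of 4044. The same region had an IDR of 0.0253 between replicates. In the ranked lists its signal was 30.9 in replicate 1 (IDR 0.286) and 25.3 in replicate 2 (IDR 0.0613). The summit lay 170 bp upstream of His4r and within the 5′ UTR of put, the type II receptor gene that starts 118 bp away on the other strand. The region was called on reads of both replicates together and in neither replicate alone.

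The chaperone Daxx (FBgn0031820, 2L from 6480929 to 6487576, plus strand) had the strongest region of the 10 genes in every list. Its signal was 771 in the main list (rank 7 of 2752), 469 in replicate 1 (rank 7 of 2803) and 320 in replicate 2 (rank 8 of 1629). These were 7.52, 7.53 and 5.36 times the median of the respective list. Next above it in the main list was the region at Sumo (signal 850) and next below it the region at Pym (signal 736). The region from 6480762 to 6481001 had its summit 57 bp upstream of the single Daxx start. The replicate summits were 15 bp apart. The summit also lay 58 bp inside lncRNA:CR45463, a non-coding RNA on the opposite strand, and 297 bp from the start of Sec61alpha, a subunit of the protein translocation channel.

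Daxx had a further called region 553 bp upstream, with a signal of 62.7 (rank 2568), whose summit fell in the 5′ UTR of Sec61alpha, 90 bp from that gene's start. Another, 524 bp downstream of the start in an intron of Daxx, was called in the pooled list alone, with a signal of 88.6. The strongest candidate at Daxx had 8.7 times the signal of the next within 1 kb in the ranked list between replicates, and 8.31 and 6.98 times in those of replicates 1 and 2. The flanking regions were not called in either replicate alone.

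XNP (FBgn0039338, 3R from 25477868 to 25482834, minus strand) had a signal of 196 in the main list (rank 349), 133 in replicate 1 (rank 320) and 67.4 in replicate 2 (rank 588). In replicate 1, 11.4% of regions had a higher signal, and in replicate 2, 36% did, but these thresholded lists differ in length (2803 and 1629 regions). In the ranked lists, 3.76% of genes with a candidate had a stronger one than XNP in replicate 1 and 5.92% in replicate 2. The summit lay between genes, 59 bp upstream of the XNP start and 205 bp upstream of the divergent genes CG5116 and CG42488. The order of XNP and His2Av changed between replicates, with XNP higher by a small margin in replicate 1 (133 against 132) and lower in replicate 2 (67.4 against 118). Their order in the main list is thus not larger than the spread between replicates.

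The windows of Daxx and XNP had an 11-base sequence in common, CGATACTATCG, which joins CGATA to its reverse complement across 1 base. It was centred 10 bp downstream of the summit at Daxx and 8 bp downstream at XNP, which is 47 and 51 bp upstream of the respective starts. Of the 28 pairs among the 8 called member regions of the main list, compared over 100 bp to either side of the summit on both strands, the longest shared sequence had a median of 8 bases and a range of 7 to 11. The other pair that shared 11 bases was Daxx and His3.3A. The sequence common to Daxx and XNP was held by 61 of the 2747 summit windows of the main list (2.22%), by 12 of the 99 windows ranked 1 to 100 (12.1%) and by 0.531% of protein-coding promoters. The sequence shared by Daxx and His3.3A was held by 5 of the 2747 summit windows (0.182%) and 0.0861% of promoters. These counts of summit windows include the member windows that the sequences came from, and the count among the 99 includes Daxx. Such shared sequences were looked for after the values were known and are a description.

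**Figure D1:**
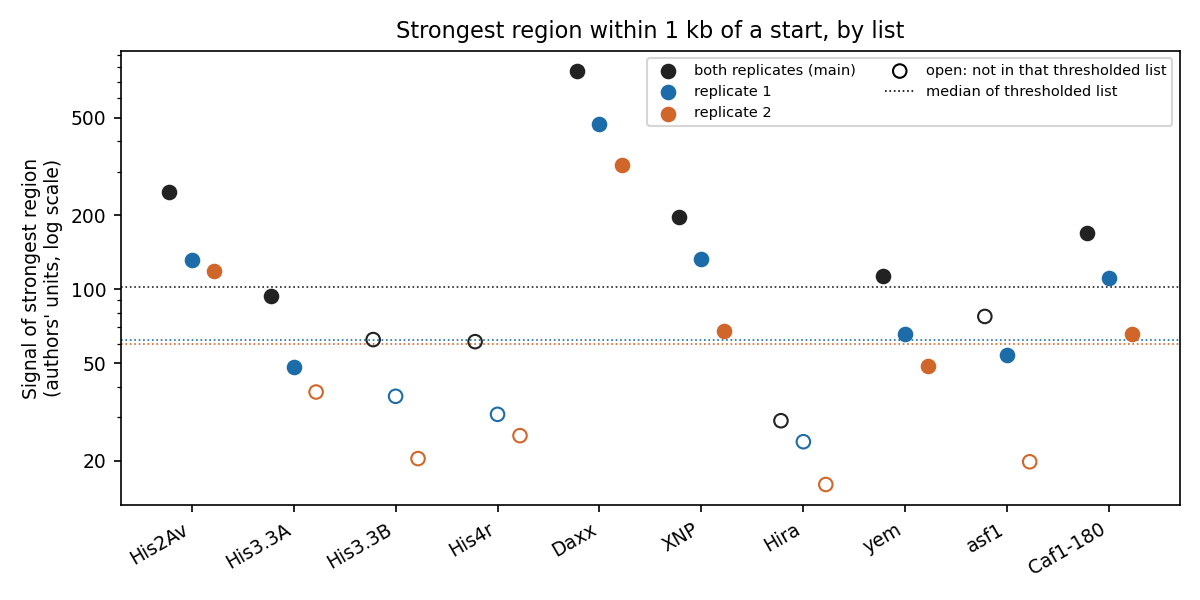
Signal of the strongest ranked region within 1 kb of a start (log scale, authors' units) for each of the 10 genes in the list between replicates and in each replicate, with filled points for regions in that thresholded list, open points for regions that are not, and dotted lines at the median of each thresholded list. Daxx stands highest in each, at 771, 469 and 320, and Hira lowest, at 29.1, 23.9 and 16.

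The H3.3 chaperone pair of Hira and yem fell on opposite sides of the limit. Hira (FBgn0022786, X from 7722119 to 7725917, plus strand) had the lowest strongest candidate of the 10 genes in every ranked list. That signal was 29.1 between replicates (IDR 0.367), 23.9 in replicate 1 (IDR 0.26) and 16 in replicate 2 (IDR 0.58). The candidate between replicates lay 771 bp upstream of the start and that of replicate 2 overlapped it, at 807 bp upstream, while that of replicate 1 lay 722 bp downstream. At the start itself, 4 bp upstream, the candidate between replicates had a signal of 21.1 (IDR 0.624). In replicate 1 a candidate 3 bp downstream of the start had 23.9 (IDR 0.722), the same to 3 digits as the strongest. Of all protein-coding genes with a candidate, 80.7% had a stronger one than Hira. The nearest called summit of the main list lay 6288 bp away, at NELF-B.

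yem (FBgn0005596, 3R from 29118330 to 29122879, minus strand) had 2 called regions of nearly equal signal in the main list, 113 (rank 1155) and 109 (rank 1244). The stronger had its summit 558 bp upstream of yem, in the 5′ UTR of the divergent gene Ctl2, a choline transporter-like gene, and 21 bp from the start of Ctl2. The other lay 12 bp downstream of the yem start. In replicate 1 the region at Ctl2 was the stronger, with a signal of 65.8 against 48.1. In replicate 2 the order was the reverse, as the region at the yem start had 48.5 and the candidate near Ctl2 had 36.7 (IDR 0.012) and was not called. The 2 regions could not be ordered beyond the spread between replicates. The region at the yem start had rank 2070 of 2803 in replicate 1 and 1216 of 1629 in replicate 2.

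asf1 (FBgn0029094, 3L from 19618894 to 19620398, plus strand) was called in the pooled list (signal 77.4, rank 2319 of 4044) and in replicate 1 (53.7, rank 1762 of 2803). In the ranked list of replicate 2 its strongest candidate had 19.8 (IDR 0.359), and 61.5% of genes had a stronger one. The summit of the called region lay 471 bp upstream of asf1 in a coding exon of the divergent gene l(3)76BDm, 98 bp from that start. At the asf1 start the nearest candidate, 108 bp downstream, had a signal of 26.6 and was in no thresholded list. The call at asf1 thus rests on a region nearer to its neighbour and on replicate 1.

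Caf1-180 (FBgn0030054, X from 8602137 to 8606304, minus strand) had a signal of 170 in the main list (rank 516), 111 in replicate 1 (rank 463) and 65.8 in replicate 2 (rank 634). It was called in all 4 lists. Its summit lay between genes, 52 bp upstream of its single start, and no start of another gene lay within 1 kb. The next candidate within 1 kb had a signal of 12.9, so that the summit stood 13.2 times above it, the highest such ratio of the 10 genes. The ratio rests on a low value, since 12.9 is 0.59 times the median of the ranked list between replicates. At Daxx the next candidate was at 4.06 times that median. In replicate 1 the ratio at Caf1-180 was 19.4. In replicate 2 it was 5.71, below the 6.98 of Daxx and the 6.42 of His2Av, and XNP had a single candidate there and so no ratio.

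**Figure D2:**
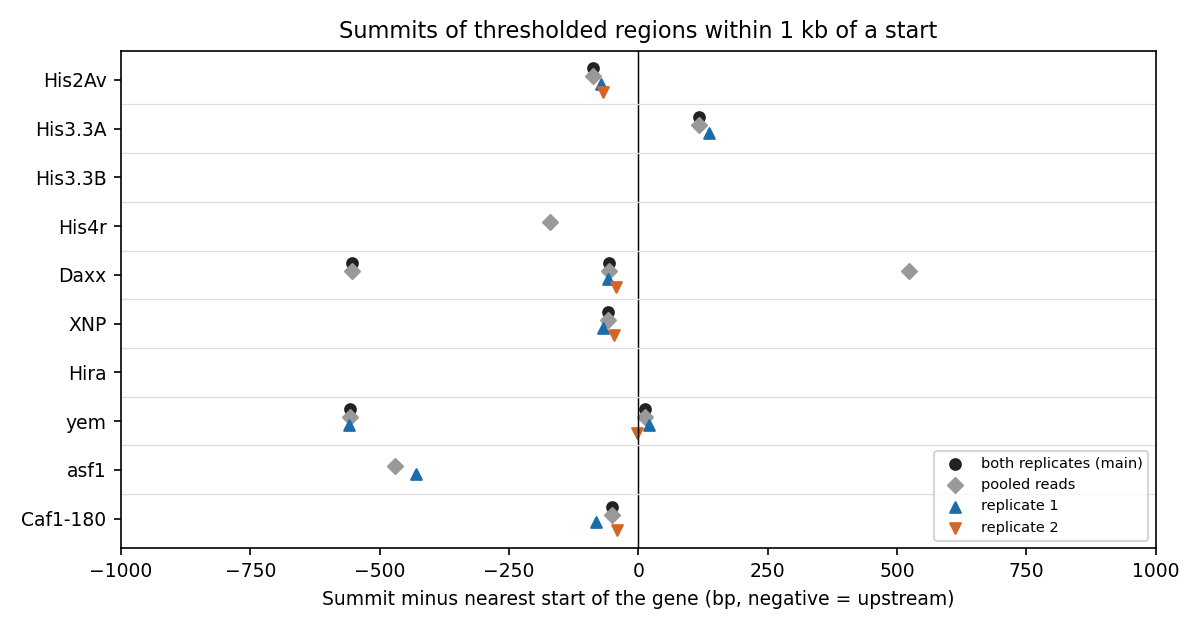
Distance in bp from the summit of each called region to the nearest start of the gene (negative is upstream), with a row for each gene and a marker for each of the 4 lists. The strongest summits of Daxx, XNP, Caf1-180 and His2Av lie 52 to 87 bp upstream in the main list, while that of asf1 in the pooled list and the strongest of yem in the main list lie 471 and 558 bp upstream, at neighbouring genes.

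The order of the genes was partly stable between replicates. Daxx was in place 1, Caf1-180 in 4, yem in 5 and Hira in 10 in both ranked replicate lists, and His3.3B was in 8. At yem, Hira and His3.3B the strongest candidates of the replicates were different regions, with summits 557, 1529 and 610 bp apart. Their shared places thus do not compare the same region. His2Av and XNP exchanged places 2 and 3. Of the rest, His3.3A was in place 7 in replicate 1 and 6 in replicate 2, asf1 in 6 and 9, and His4r in 9 and 7. Within a list, the Daxx signal was 3.1 times that of His2Av in the main list, 3.54 times in replicate 1 and 2.71 times in replicate 2. For Caf1-180 the ratio was 4.55, 4.24 and 4.86, and for Hira 26.5, 19.6 and 20. For asf1 it ran from 8.74 in replicate 1 to 16.2 in replicate 2, the widest gap between replicates of the 10 genes.

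Every member had a candidate in the ranked list between replicates, so that all 10 can be set beside all genes without regard to calls. The strongest candidate within 1 kb had a median signal of 104 over the 10 members and of 44.8 over the 12514 protein-coding genes with one (interquartile range 32 to 69.3). Of the members 9 were above the gene median and 7 above the upper quartile. In replicate 1 the median was 59.8 for the members and 26.5 for all genes, and 9 members were above it. In replicate 2 it was 43.3 against 22.5, with 7 above. His3.3B, Hira and asf1 were below the gene median in replicate 2, and Hira was also below it in the other lists. In the ranked list between replicates, 0.04% of genes had a stronger candidate than Daxx, 2.37% than His2Av, 4.1% than XNP, 5.82% than Caf1-180 and 12% than yem. The candidates read there for His2Av, yem, asf1 and His4r lay nearer to the start of a neighbour, namely ball, Ctl2, l(3)76BDm and put.

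**Figure D3:**
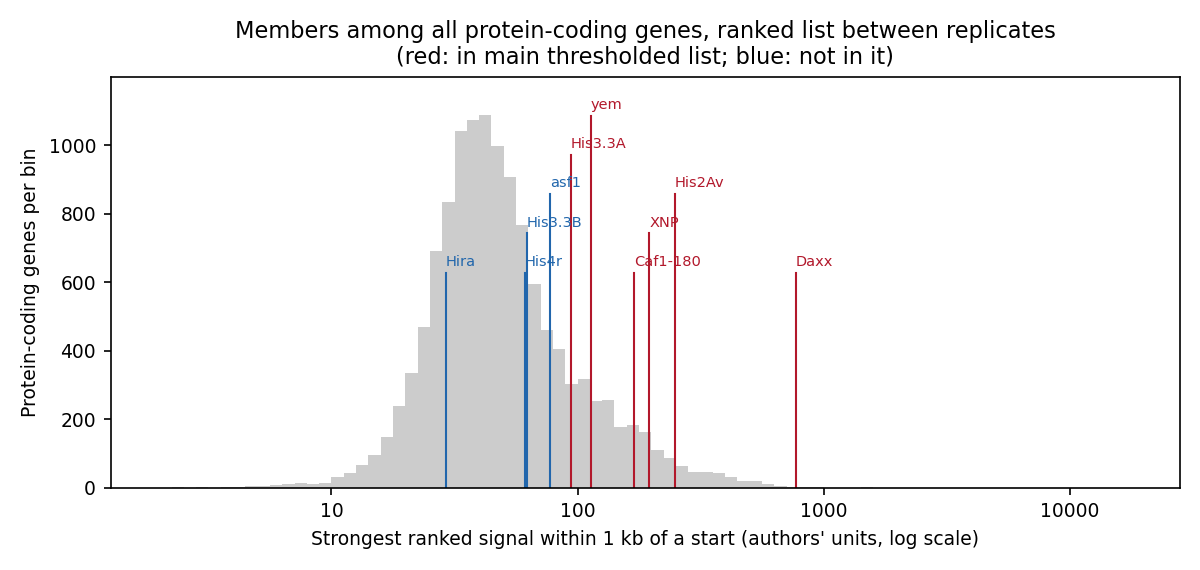
Number of protein-coding genes by the signal of their strongest ranked region within 1 kb of a start (log scale, list between replicates), with a line for each of the 10 genes, red where it is in the main thresholded list and blue where it is not. Hira, at 29.1, is the only line below the median of all genes (44.8), and Daxx, at 771, lies in the far right tail.

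Regions around the starts differed in shape as well as in strength. At Daxx, His2Av, XNP, His3.3A and Caf1-180 a single candidate stood at least 5.4 times above the next within 1 kb in the ranked list between replicates. At His3.3A this ratio was 6.74 there, but 3.65 in replicate 1 and 2.65 in replicate 2, close to the 2.54 of asf1 in replicate 1. The next candidates at His3.3A and Caf1-180 were low in the list between replicates, at 0.637 and 0.59 times its median, which raises their ratios. Between replicates, at asf1, His4r and His3.3B the ratio was 1.82, 1.97 and 1.78. At Hira it was 1.13, with 4 candidates of 11 to 29.1 in signal spread over the window. The ratio of 1.04 at yem reflects its 2 called regions, and the next candidate there had 24.3.

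**Figure D4:**
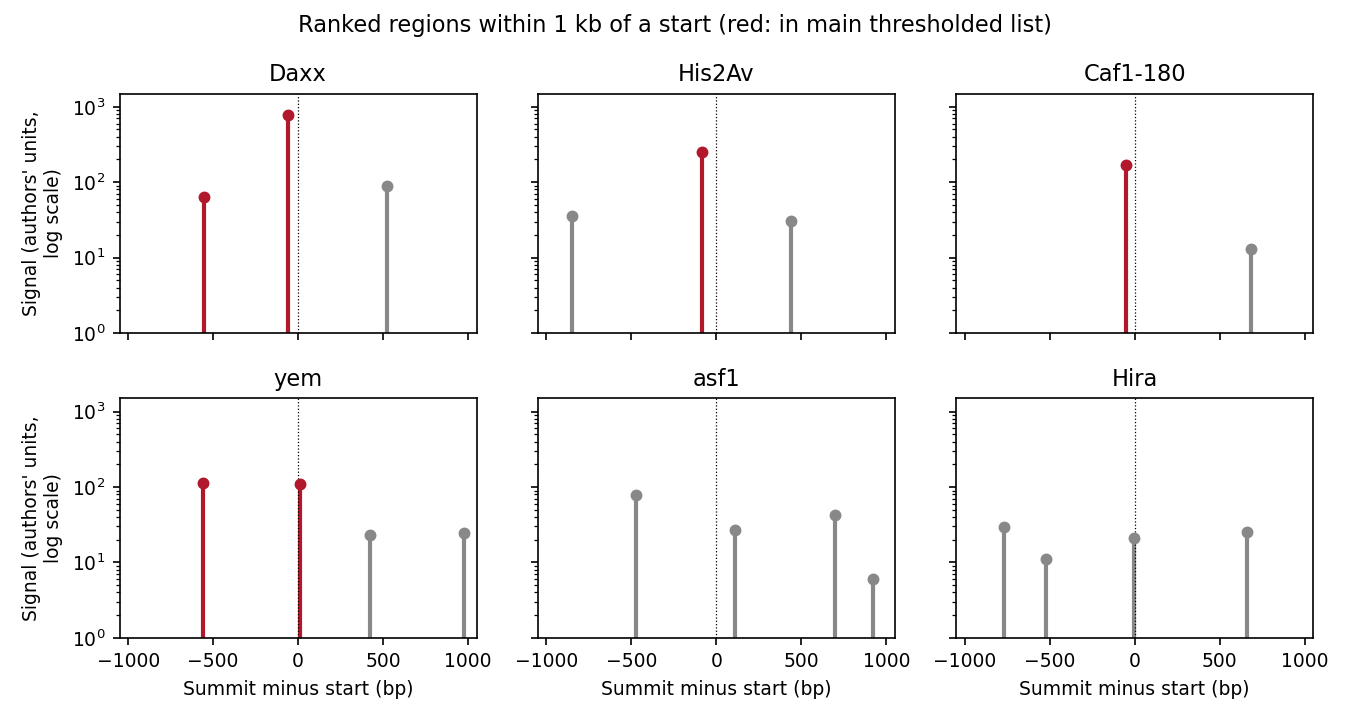
Signal (log scale) of every ranked region within 1 kb of the start, against distance from the start in bp, for 6 of the genes in the ranked list between replicates. Red stems are regions of the main thresholded list: Daxx, His2Av and Caf1-180 have a tall stem just upstream of the start, yem has 2 of about equal height, and asf1 and Hira have none.

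Of 6 known promoter sequences, 3 had no exact copy in the member windows. With 8 windows, a count of 0 cannot be set apart from the shares given below. Each was searched on both strands within 100 bp of the summit of the 8 called member regions, and shares over all 2747 main-list windows are given beside. The binding sequence of the promoter factor DREF, TATCGATA, was found in 0 of 8 and in 16.1% of all windows. This sequence contains CGATA and its reverse complement. Only exact copies were counted, and the printed windows of His2Av and Caf1-180 each hold a sequence that differs from it at the last base alone. The core of promoter motif 1, GGTCACACT, was found in 0 of 8 (6.08% of all), and TATAAA, the TATA box, in 0 of 8 (18.8%). GAGAG, a core of the sites of GAGA factor, was found in 3 of 8 (24.9%), CAGCTG, an E-box, in 2 (12.3%) and CATCNCTA, promoter motif 7, in 1 (10.5%). Over promoters of all protein-coding genes, of the same length around the outermost start, the shares were 7.84%, 5.29%, 29.2%, 22.5%, 13.8% and 5.14% in this order. When whole called regions were read instead, GGTCACACT was found in 1 of 8 (6.84% of all), while TATCGATA and TATAAA stayed at 0.

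CGATA, picked after windows of the members had been seen, was in 4 of the 8 member windows, namely those of Daxx, His2Av, XNP and Caf1-180. These are the 4 member regions of highest signal, and at each the nearest copy was centred 3 to 13 bp from the summit. The regions at His3.3A, yem, Ctl2 and Sec61alpha had no copy. In the whole main list 53.4% of windows held it, with the nearest copy at a median of 18 bp from the summit, and 39.4% of promoters did. Main-list regions with it had a median signal of 124 (1466 regions) and those without it 87.3 (1281 regions).

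Other genes of the same roles were read from a list of 19, mostly chaperone and variant exchange genes. It also held the variant genes cid and BigH1, which were called in none of the 4 lists. Of the 19 genes, 6 were called in the main list (31.6%, against 20.6% of all protein-coding genes) and 9 in the pooled list (47.4% against 27.3%). In replicate 1, 7 were called (36.8% against 21.9%), and in replicate 2, 3 were called (15.8%), near the 12.7% of all genes. The strongest was Set, the counterpart of a mammalian histone chaperone, with a signal of 357 in the main list (rank 89), 225 in replicate 1 and 134 in replicate 2. The Set summit lay 54 bp from its start and 40 bp from the start that eIF2gamma and Su(var)3-9 share. Fkbp39, a nuclear FK506-binding prolyl isomerase, had 137, with its summit 74 bp from its start and 59 bp from that of Cyfip. dom, the ATPase of the complex that exchanges the H2A variant, had 136, and Tip60, the acetyltransferase of that complex, 68.8. The dom summit lay 37 bp from its start and 73 bp from that of CG30394. That of Tip60 lay 13 bp from its start and 58 bp from that of tyf. The chaperone gene Nap1 had 77.1 and Mcm2, which belongs to the replicative helicase and binds H3 with H4, had 72.6. Of the subunits that work with Caf1-180, Caf1-55 was called in the pooled list (73.6) and in replicate 1 (55.2), and Caf1-105 in none of the 4 lists.

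None of the 111 replication-dependent histone genes had a called region in any of the 4 lists. Candidates were scarce there, since 4 of the 111 (3.6%) had a ranked region within 1 kb in the list between replicates, against 89.7% of protein-coding genes and all 10 members. The share of the members with a call and that of the clustered histones therefore rest on different numbers of candidates, and were not compared. The tagged gene CG42726 itself (3R) had no called region within 1 kb of its start. Its strongest candidate there had a signal of 54 between replicates (IDR 0.104).

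Against other ways of counting, the share of all protein-coding genes with a called region was 12% with main-list regions above the median signal, where 5 members were called. It was 18% with a window of 500 bp and 24.5% with 2 kb, with 6 members in each. With the outermost start alone it was 19.4% (6 members), with any base of the region within 1 kb 21.2% (6 members), and with each summit given to its nearest start 14.6% (5 members). The call at His3.3A was lost above the median, since its signal is below it, and that at His2Av was lost with the nearest start, which is that of ball.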

How the data were processed

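The data are ChIP-seq peak lists of 2 biological replicates of 1 group, from sonicated chromatin, per the labels. Each region carries a signal, the authors' own deposited value, and neither its scaling nor the peak caller is given in the sources used here. The ranked lists also hold the −log10 of the IDR, as deposited by the authors. The lowest −log10 value kept in each thresholded list was 2, an IDR of 0.01. The main list holds 2752 regions, the pooled list 4044, and replicates 1 and 2 hold 2803 and 1629. Signals rank regions within a list and were not compared between lists. The summit is the position given in each list, counted from 1.

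Genes and starts came from Ensembl release 115 on BDGP6, without transposable elements, and sequence from RefSeq release 6. Region ends lay within its chromosome lengths. Work used Python 3.11.15, pandas 2.3.3 and numpy 2.4.6. Assignment of summits to genes was tested on simulated data with planted summits. The replication-dependent list took symbols of the cluster copies, and NASP of the chaperone list matched Nasp ignoring case. Named genes are all 10 members, genes with starts within 1 kb of their called summits, the neighbours of Daxx in rank, the 5 strongest of the chaperone list with the subunits of Caf1-180, and CG42726. Tip60, cid, BigH1, genes beside the summits of that list and the genes nearest the called summits beyond 1 kb were named after their values were seen. The members and lists were chosen with earlier results of these data known, so no test was made. Alternatives were the pooled list, regions above the median, each replicate alone, other windows, starts and assignments.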

Additional observations from a re-analysis of the deposited data

How the results depend on the processing

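The count of members with a called region stayed within 1.5 times its value of 6 under all 9 alternatives, from 5 to 8. Leaving out replicate 1 gave 5 and leaving out replicate 2 gave 7. The count of the other chaperone and exchange genes, 6 of 19 in the main list, was 3 with main-list regions above the median signal. It ranged from 3 to 7 when a replicate was left out. With each summit given to its nearest start it was 4, as Set and Fkbp39 were lost. The share of all protein-coding genes moved too, from 20.6% to 12% above the median, 12.7% without replicate 1, 21.9% without replicate 2 and 14.6% with the nearest start. The cause was not tested. The count of 0 of 111 replication-dependent histone genes was the same under all 9 alternatives. It could hardly move, since 107 of the 111 had no ranked candidate within 1 kb in the list between replicates. Other windows and starts pick among the same deposited regions, so they do not test a signal or a distance. They changed the region picked at yem alone, where the summit at 558 bp upstream gave way to that at 12 bp with a 500 bp window or the nearest start alone. Of 12 recomputed sequence counts, 5 changed by more than 1.5 times, each on counts of 3 or fewer. No paired analysis was possible because there is a single group. The depth is unknown and no control was analysed here, so a candidate past the IDR limit at Hira or His3.3B does not show that the protein is absent there.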
